A study of Homo sapiens with 8 samples.

Results

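The genes described here encode secreted proteins of the extracellular matrix: the collagen chains COL4A1, COL4A2, COL5A1, COL5A2, COL6A1, COL6A2 and COL12A1, the laminin chains LAMB1 and LAMC1, and fibronectin (FN1). They were chosen by name, 10 genes in all, and 8 of them were found among the 13471 genes of the deposited gene table. COL5A1 and COL6A2 were not analysed here. The data come from hTERT-RPE1, a human retinal pigment epithelium cell line immortalized with telomerase, and compare RNA recovered by immunoprecipitation (IP) of hnRNP U with RNA of libraries made without an antibody. Interphase cells had been held in 2 mM thymidine for 24 h, which stalls DNA replication. Mitotic cells had the same thymidine block, 6 h of growth without thymidine and then a night in S-Trityl-L-cysteine, an inhibitor of the spindle motor Eg5, so the groups differ in drug and in time as well as in cell cycle phase. Each of the 4 groups (interphase without IP, interphase IP, mitosis without IP, mitosis IP) has 2 libraries. Nothing in the labels says that replicates came from separate cultures, so p-values measure the spread between these libraries, which may be technical. No IP with a control antibody was analysed here, so RNA bound by hnRNP U and RNA carried over nonspecifically cannot be told apart. In bulk RNA, fewer cells of a kind and less RNA per cell cannot be told apart either.

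hnRNP U, also called SAF-A, is an abundant nuclear protein that binds RNA and DNA. The mRNAs of collagens, laminins and fibronectin are made in the nucleus and translated on ribosomes attached to the endoplasmic reticulum, because their products enter the secretory pathway while they are being made. COL4A1 and COL4A2 encode the chains of the type IV collagen network of basement membranes. LAMB1 and LAMC1 encode a beta and a gamma chain of laminin, which assembles with an alpha chain into the other network of basement membranes, the sheet on which epithelia such as the retinal pigment epithelium rest. COL5A2 encodes a chain of fibrillar type V collagen, COL12A1 a collagen that associates with fibrils, COL6A1 a chain of beaded-filament type VI collagen, and FN1 a glycoprotein that binds integrins and collagen.

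Levels are in FPKM (fragments scaled by the length of the transcript and the size of the library), a scale per length on which genes can be set side by side. Across genes, replicates had a Pearson's r between 0.989 and 0.995 for log2(FPKM + 1). The number of fragments per library is unknown. FPKM summed over genes to between 1017308 and 1249972 in libraries without IP and between 321539 and 459661 in those of the IP. The median log2(FPKM + 1) of a library lay between 2.799 and 3.024. Directions of the IP effects below are on this scale, and scaling to equal sums was not tested. The most common step between low values placed the other libraries at 0.839 to 1.277 times the depth of the first interphase library without IP. For each of them the next most common value was a multiple or a fraction of the first by the same factor, so these depths are uncertain. Of 14 retinal pigment epithelium markers, MITF (7.06 to 33.2 FPKM) and OTX2 (3.33 to 22.2 FPKM) were above 1 FPKM on average, PMEL and LRAT were below it, and the other 10, RPE65 and BEST1 among them, were not analysed here. Of 6 epithelial markers, KRT8, KRT18 and CLDN1 summed to 45.3 to 123 FPKM and the other 3 were not analysed here. The summed level of 7 mesenchymal markers ran from 1030 to 2410 FPKM, led by VIM, and that of 7 mitotic genes without IP was 195 and 198 FPKM in the interphase libraries against 620 and 654 FPKM in the mitotic ones. The 6 blood cell markers were not analysed here, and KDR, an endothelial marker, stayed at or below 0.199 FPKM.

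FN1 was by far the most abundant of the 8 genes and COL6A1 the least. Over the 8 libraries FN1 averaged 343 FPKM, above 98.9% of genes. COL4A1 (38.6 FPKM), LAMB1 (38.5 FPKM) and LAMC1 (38.3 FPKM) averaged nearly the same level, followed by COL4A2 (27.4 FPKM), COL12A1 (13.3 FPKM) and COL5A2 (11.1 FPKM). These averages include the IP libraries. Without IP, the interphase and mitosis means were 16.1 and 37.3 FPKM for COL4A1 and 16.4 and 34.3 FPKM for COL4A2. They were higher for LAMB1 (30.0 and 44.0 FPKM) and LAMC1 (26.8 and 60.4 FPKM). COL6A1 averaged 0.589 FPKM, above 11.8% of genes, and never reached 1 FPKM. Between its lowest and its highest library the level changed 6.94-fold for COL5A2 and 6.28-fold for COL4A1, but 2.18-fold for LAMB1 and 2.47-fold for COL4A2.

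**Figure D1:**
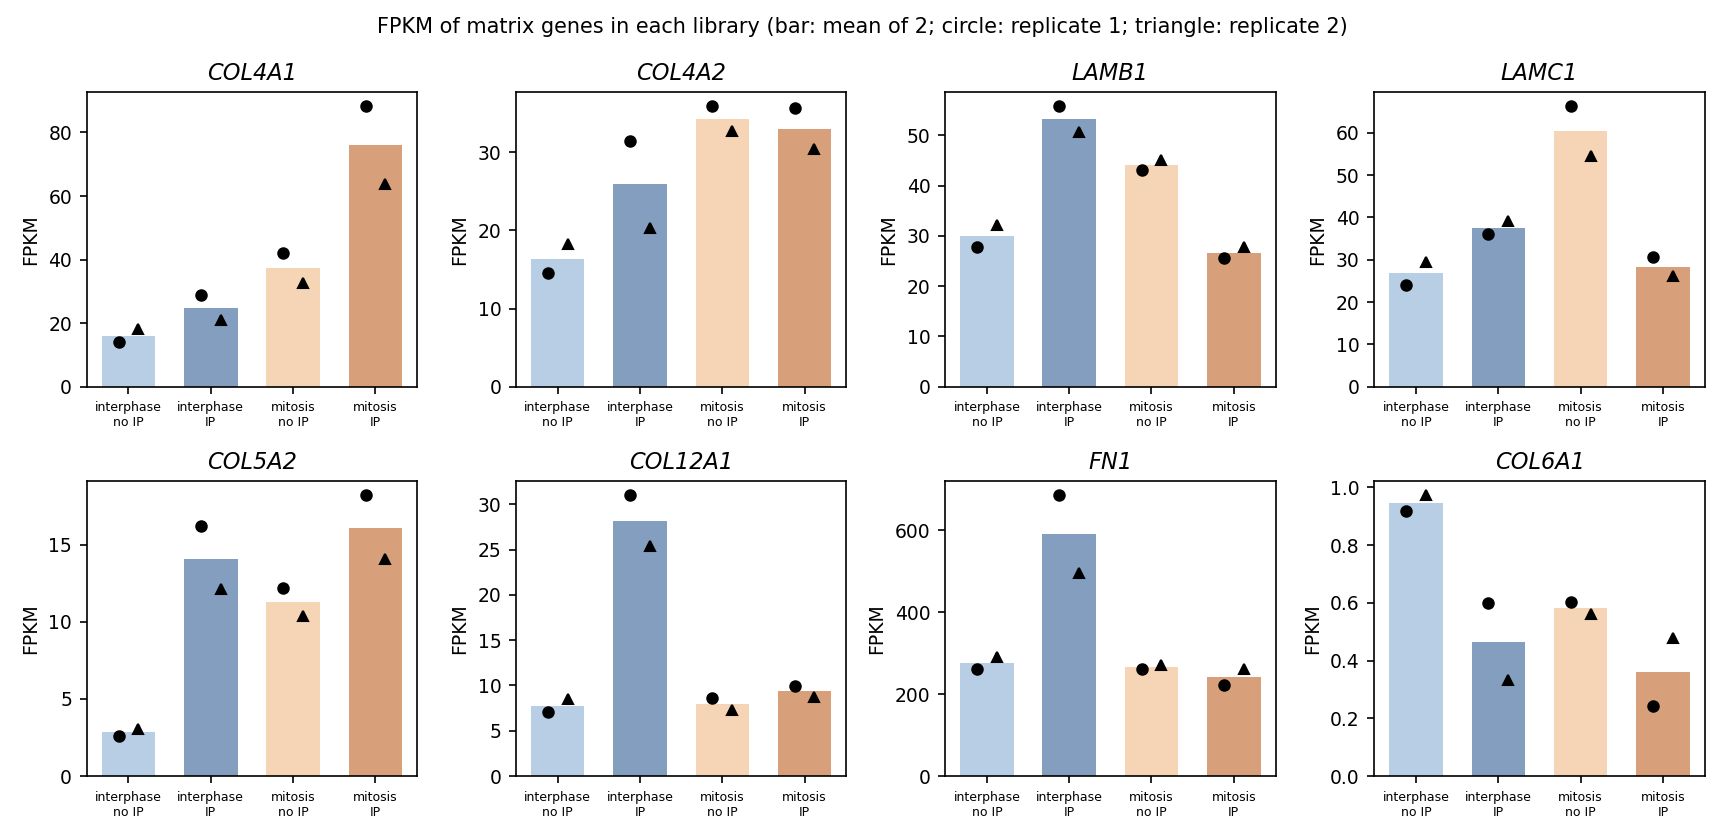
FPKM of the 8 genes in each of the 8 libraries, in 1 panel per gene with its own axis from 0. Bars are means of 2 libraries, circles are replicate 1 and triangles replicate 2. FN1 and COL12A1 stand high in the interphase IP alone, LAMB1 and LAMC1 are lower in the mitotic IP than in mitosis without IP, and COL4A1 reaches 63.8 and 88.3 FPKM in the mitotic IP while COL4A2 stays at 30.4 and 35.7 FPKM.

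COL4A1 (ENSG00000187498.15; chromosome 13, 110148963 to 110307233, minus strand) and COL4A2 (ENSG00000134871.18; chromosome 13, 110305812 to 110513209, plus strand) lie head to head, in GRCh38 coordinates of GENCODE release 29, with 126 bases between their starts in RefSeq (GRCh38.p14). LAMB1 (ENSG00000091136.13; chromosome 7, 107923799 to 108003255, minus strand) and LAMC1 (ENSG00000135862.5; chromosome 1, 183023460 to 183145592, plus strand) also encode chains of one protein but lie on different chromosomes. COL12A1 (ENSG00000111799.20) lies on chromosome 6, from 75084326 to 75206051 on the minus strand. The 150 bases before the RefSeq starts of COL12A1 and LAMC1 are shown. Of 6 analysed genes with such a window, these 2 were free of GENCODE exons and of the gene's own interval in the gene table. The IP effects played no part in this choice. Each is written 5′ to 3′ on the strand of its gene, and was searched on both strands for the CCAAT box, the GC box (GGGCGG) and the TATA box (TATAAA), which would stand in capitals.
COL12A1, chr6:75206054-75206203, minus strand: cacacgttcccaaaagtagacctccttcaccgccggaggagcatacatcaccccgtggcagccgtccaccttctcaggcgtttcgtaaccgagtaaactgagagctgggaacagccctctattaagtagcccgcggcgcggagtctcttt
LAMC1, chr1:183023270-183023419, plus strand: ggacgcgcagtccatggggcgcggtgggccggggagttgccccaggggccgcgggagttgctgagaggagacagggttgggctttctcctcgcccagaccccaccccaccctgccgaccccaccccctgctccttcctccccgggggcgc
Neither window holds any of the 3 motifs. Among 27305 RefSeq promoters, 24.4% hold CCAAT, 36.7% hold GGGCGG and 7.05% hold TATAAA in the same 150 bases. The GC content was 57.3% before COL12A1 and 74.7% before LAMC1.

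The other 3 genes are COL5A2 (ENSG00000204262.12; chromosome 2, 189031896 to 189225312, minus strand), FN1 (ENSG00000115414.18; chromosome 2, 215360440 to 215436172, minus strand) and COL6A1 (ENSG00000142156.14; chromosome 21, 45981737 to 46005050, plus strand). No other gene of the table shares an interval with any of the 8. In GENCODE, the ends of COL4A1 and COL4A2 overlap on opposite strands, antisense genes lie opposite COL4A2, COL5A2, LAMB1 and LAMC1, and LAMB1 also overlaps DLD. Whether the authors counted reads by strand is not given in the sources used here, so reads of such partners cannot be told apart from those of the gene named.

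The effect of the hnRNP U IP in interphase was asked first. The mRNAs of 7 of the 8 genes were higher in the IP than without it, from 1.40-fold for LAMC1 to 4.99-fold for COL5A2, and COL6A1 was lower. All 8 were called by limma at an adjusted p below 0.05, where 74.6% of all genes were called, 37.6% as higher and 37.0% as lower. The median log2 fold change was 0.71 over the 8 genes and 0.02 over all genes. With trends in transcript length and GC content removed, LAMC1 was at -0.04 (adjusted p 0.816) and COL6A1 turned to 0.48 (adjusted p 0.00639), while the other 6 stayed higher.

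COL5A2 was at 2.62 and 3.04 FPKM in interphase libraries without IP and at 16.2 and 12.1 FPKM in those of the IP. Both IP libraries were above both others. Its log2 fold change, here and below the difference of mean log2(FPKM + 1), was 1.97 (SE 0.17, limma adjusted p 8.33e-06), larger than that of 98.6% of genes. COL12A1 went from 7.05 and 8.5 FPKM to 31.0 and 25.4 FPKM. Its log2 fold change was 1.73 (SE 0.14, adjusted p 6.57e-06), and again the groups did not overlap. For genes called on the same libraries this adds no support, and the share of all genes without overlap was not computed. FN1 rose from 260 and 290 FPKM to 685 and 495 FPKM, a log2 fold change of 1.08 (SE 0.20, adjusted p 0.000895). In FN1 the IP replicates were far apart, with 2.64-fold in replicate 1 and 1.71-fold in replicate 2. Quantile normalization gave FN1 a log2 fold change of 2.13 (adjusted p 2.53e-05).

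The basement membrane chains are described next. LAMB1 went from 27.7 and 32.2 FPKM to 55.8 and 50.6 FPKM, with a log2 fold change of 0.81 (SE 0.11, adjusted p 0.00013). LAMC1 went from 24.0 and 29.5 FPKM to 36.2 and 39.1 FPKM, with a log2 fold change of 0.48 (SE 0.14, adjusted p 0.0125). The groups did not overlap for either laminin chain, but the share of all genes without overlap was not computed. COL4A1 went from 14 and 18.2 FPKM to 28.8 and 20.9 FPKM, and COL4A2 from 14.5 and 18.3 FPKM to 31.4 and 20.3 FPKM. Their log2 fold changes were 0.58 (SE 0.21, adjusted p 0.0332) and 0.60 (SE 0.19, adjusted p 0.0192). Both rose more in replicate 1 (2.05-fold and 2.16-fold) than in replicate 2 (1.14-fold and 1.11-fold). Without interphase IP replicate 1 the adjusted p was 0.217 for COL4A1 (log2 fold change 0.36) and 0.137 for COL4A2 (0.30). Without interphase no-IP replicate 1 it was 0.193 for COL4A1 and 0.126 for COL4A2, and LAMC1 lost its call as well (adjusted p 0.104), as it did without interphase IP replicate 2 (0.0662). COL6A1 fell from 0.920 and 0.973 FPKM to 0.600 and 0.332 FPKM, a log2 fold change of -0.41 (SE 0.12, adjusted p 0.00992). Without interphase IP replicate 2 the value was -0.28 and the call was lost (adjusted p 0.0814). At levels this low the log2(FPKM + 1) scale understates the change, which was 0.492-fold between the means and -0.93 with a pseudocount of 0.1.

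In mitosis 25.0% of these genes were called as higher in the IP and 25.0% as lower, both below the shares over all genes. COL4A1 and COL5A2 were higher in the IP, LAMB1 and LAMC1 were lower, and the other 4 did not pass the test. This makes 4 of 8 genes called, where 64.5% of all genes were called (32.8% higher and 31.7% lower). The median log2 fold change was -0.10 over the 8 genes and 0.01 over all genes. Both directions rest on the FPKM scale, and scaling to equal sums of FPKM was not tested.

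LAMC1 stood at 66.3 and 54.5 FPKM in mitosis without IP and 30.6 and 26.1 FPKM in the IP. Each IP library was below each library without IP. The log2 fold change was -1.06 (SE 0.14, adjusted p 0.000193), with 0.462-fold and 0.480-fold in the replicates. LAMB1 fell from 43.0 and 45.0 FPKM to 25.6 and 27.7 FPKM, a log2 fold change of -0.70 (SE 0.11, adjusted p 0.00047). COL4A1 rose from 42.0 and 32.6 FPKM to 88.3 and 63.8 FPKM, a log2 fold change of 1.00 (SE 0.21, adjusted p 0.00296), with 2.10-fold and 1.96-fold in the replicates. COL5A2 rose from 12.2 and 10.4 FPKM to 18.2 and 14.1 FPKM, a log2 fold change of 0.47 (SE 0.17, adjusted p 0.0384). The COL5A2 call was lost without mitosis IP replicate 1, which lowered the value to 0.29 (adjusted p 0.226), and without either mitosis no-IP library (0.57 and 0.36, adjusted p 0.0514 and 0.181). It was also lost without either interphase no-IP library, which enter this comparison through the shared estimate of spread alone and left the value at 0.47 (adjusted p 0.0502 and 0.0504). COL4A2 stood at 35.9 and 32.7 FPKM without and 35.7 and 30.4 FPKM with the IP, overlapping groups with a log2 fold change of -0.06 and a 95% confidence interval from -0.50 to 0.39. The intervals of FN1 (-0.14, from -0.59 to 0.31), COL12A1 (0.21, from -0.12 to 0.54) and COL6A1 (-0.22, from -0.49 to 0.04) also included 0. FN1 was at 260 and 270 FPKM without and 222 and 262 FPKM with the IP, so its groups overlapped. COL12A1 was at 8.60 and 7.28 FPKM without and 9.97 and 8.73 FPKM with the IP, and COL6A1 at 0.602 and 0.562 FPKM without and 0.244 and 0.480 FPKM with it. The groups of COL12A1 and COL6A1 did not overlap, though neither gene was called. Separate groups thus add no support for LAMC1 either, and the share of all genes without overlap was not computed.

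**Figure D2:**
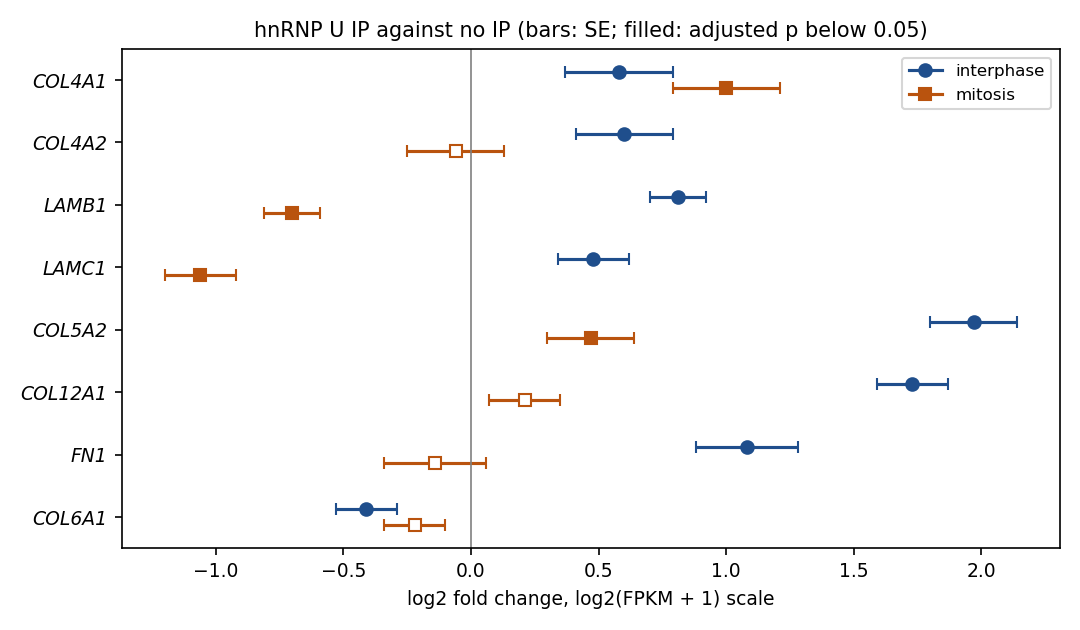
Log2 fold change of the IP against no IP in interphase (circles) and in mitosis (squares) for the 8 genes, on the log2(FPKM + 1) scale. Bars are standard errors, and filled symbols passed limma at an adjusted p below 0.05. COL12A1 lies at 1.73 in interphase and 0.21 in mitosis, LAMC1 at 0.48 and -1.06, and COL4A1 is the only one of the 7 genes with a positive interphase value whose mitosis value is the higher one (0.58 and 1.00).

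Whether the IP effect differed between phases was tested directly as an interaction, mitosis minus interphase. It was lower in mitosis for 5 of the 8 genes and higher for none, where 47.1% of all genes passed (27.2% higher and 19.9% lower in mitosis). The median difference was -1.36 over the 8 genes and 0.07 over all genes. LAMC1 (-1.54, SE 0.20, adjusted p 0.000425), COL12A1 (-1.52, SE 0.20, adjusted p 0.0005), LAMB1 (-1.51, SE 0.15, adjusted p 0.000147) and COL5A2 (-1.5, SE 0.24, adjusted p 0.00122) had nearly the same difference, and their standard errors overlap. FN1 followed at -1.22 (SE 0.28, adjusted p 0.00709), or -1.86 after quantile normalization. Each difference is also the change between phases in the IP minus that without IP, and these parts differed between genes. They were -1.49 and 0.03 for COL12A1, -1.27 and -0.05 for FN1, -0.97 and 0.54 for LAMB1 and -0.40 and 1.14 for LAMC1. For COL5A2 they were 0.18, which did not pass the test, and 1.69, so its lower IP effect was not a called fall in the IP. In each of these 5 genes both replicates gave a negative difference, from -1.80 to -0.82. Having been called on the same libraries, the genes gain no separate support from this. COL4A2 had a difference of -0.66 (SE 0.28) with an adjusted p of 0.0794, and replicates of -1.07 and -0.25. Its difference passed the test after quantile normalization (-0.84, adjusted p 0.0433), with trends in transcript length and GC content removed (-0.76, adjusted p 0.0255) and without interphase IP replicate 2 (-0.96, adjusted p 0.0105). COL4A1 (0.42, from -0.27 to 1.11) and COL6A1 (0.19, from -0.18 to 0.57) had intervals that include 0.

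The level of the mRNAs themselves was compared between phases in the libraries without IP. COL4A1, COL4A2, COL5A2, LAMC1 and LAMB1 were higher in mitosis, from 1.47-fold for LAMB1 to 4.01-fold for COL5A2, and FN1 and COL12A1 had nearly equal means. This makes 5 of 8 genes called as higher and 0 as lower, where 51.7% of all genes were called, 26.2% as higher and 25.5% as lower. The median log2 fold change was 0.79 over the 8 genes and 0.00 over all genes. COL5A2 had the largest change, 1.69 (SE 0.17, adjusted p 0.000113), from 2.62 and 3.04 FPKM to 12.2 and 10.4 FPKM. COL4A1 (1.16, SE 0.21, adjusted p 0.0022), LAMC1 (1.14, SE 0.14, adjusted p 0.000303) and COL4A2 (1.03, SE 0.19, adjusted p 0.0025) rose by amounts that differ by less than their standard errors. LAMB1 rose by 0.54 (SE 0.11, adjusted p 0.00336). In none of these 5 genes did the phases overlap. The test had picked them from the same libraries, so this adds no support. The share of all genes without overlap was not computed. FN1 (-0.05, from -0.50 to 0.40) and COL12A1 (0.03, from -0.30 to 0.36) showed no difference beyond the spread between replicates. COL6A1 was lower in both mitotic libraries (0.602 and 0.562 FPKM) than in both interphase ones (0.920 and 0.973 FPKM), with a log2 fold change of -0.30 and an adjusted p of 0.0586. Median centring of the libraries, which moved the median of all genes from 0.00 to -0.08 in this comparison, gave COL6A1 -0.38 with an adjusted p of 0.0212. Leaving out any 1 of the 4 IP libraries, which kept the value at -0.30, also gave a call (adjusted p from 0.0419 to 0.0437). Marker genes moved between these libraries too. KRT18 (-0.92), CLDN1 (-0.69) and OTX2 (-0.97) were lower in mitosis and ZEB1 (1.42), CDH2 (1.19) and KRT8 (0.41) higher, with adjusted p from 6.24e-05 to 0.0115. The mesenchymal markers went both ways, since S100A4 (-1.41), ACTA2 (-1.31) and SNAI2 (-1.23) were lower, with adjusted p from 0.000113 to 0.034. VIM (-0.54, adjusted p 0.188) and TAGLN (0.02, adjusted p 0.96) did not pass. The summed mesenchymal markers were at 2120 and 2410 FPKM in interphase and 1690 and 1730 FPKM in mitosis, the epithelial ones at 116 and 123 FPKM and at 95.3 and 101 FPKM. Their part in the changes of the matrix genes was not tested.

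Between the IP libraries of the phases, which are the same libraries as in the IP comparisons above, COL4A1 was higher in mitosis and COL12A1, FN1, LAMB1 and LAMC1 were lower. These are 5 calls, where 61.4% of all genes were called (35.8% higher and 25.6% lower). The median log2 fold change was -0.25 over the 8 genes and 0.08 over all genes. COL4A1 rose from 28.8 and 20.9 FPKM to 88.3 and 63.8 FPKM, 3.06-fold between the means (log2 fold change 1.58, SE 0.21, adjusted p 0.000241). COL12A1 fell to 0.331 of its interphase IP level (-1.49, SE 0.14, adjusted p 3.41e-05) and FN1 to 0.410 of it (-1.27, SE 0.20, adjusted p 0.000541). LAMB1 changed by -0.97 (SE 0.11, adjusted p 8.01e-05) and LAMC1 by -0.40 (SE 0.14, adjusted p 0.0364). The LAMC1 call was lost without either interphase IP library (adjusted p 0.0647 and 0.144) and without mitosis IP replicate 2 (0.184). COL4A2 (0.37, from -0.08 to 0.81), COL5A2 (0.18, from -0.21 to 0.57) and COL6A1 (-0.11, from -0.37 to 0.16) did not pass the test. Without interphase IP replicate 1, COL4A2 changed by 0.67 with an adjusted p of 0.0112.

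**Figure D3:**
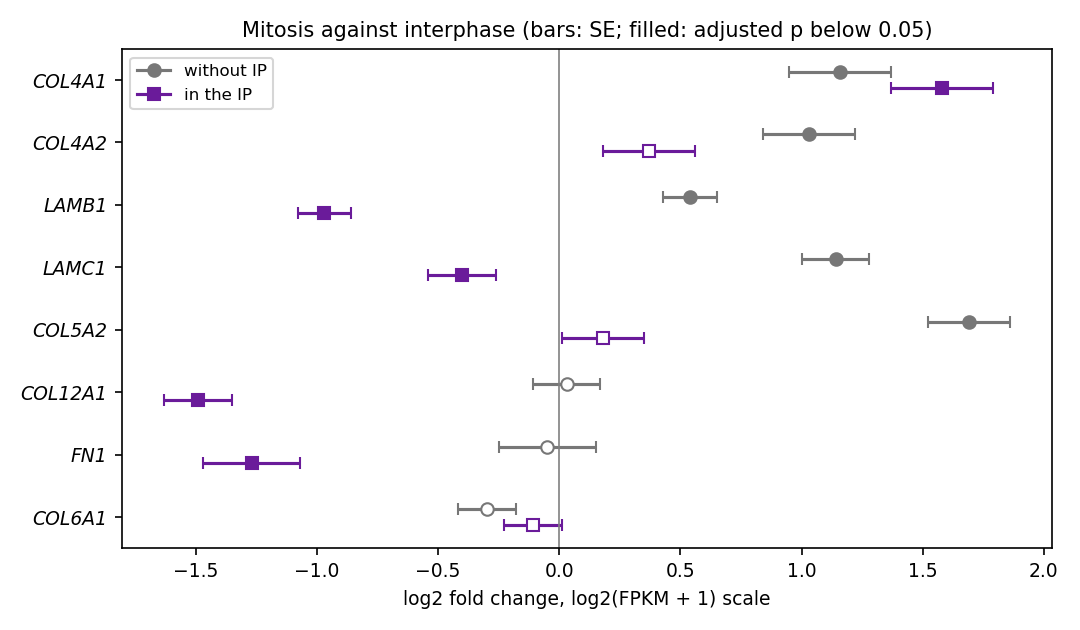
Log2 fold change of mitosis against interphase without IP (circles) and in the IP (squares) for the 8 genes, on the log2(FPKM + 1) scale. Bars are standard errors, and filled symbols passed limma at an adjusted p below 0.05. FN1 and COL12A1 lie near 0 without IP (-0.05 and 0.03) and at -1.27 and -1.49 in the IP, whereas LAMC1 lies at 1.14 without IP and -0.40 in the IP.

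Chains that are assembled into one protein were then set against each other, as ratios of FPKM within a library. These ratios are a description and were not tested. COL4A1 and COL4A2 were at equal levels without IP in interphase, with ratios of 0.967 and 0.999. The ratio was 0.917 and 1.03 in the interphase IP and 1.17 and 0.995 in mitosis without IP. In the mitotic IP it was 2.47 and 2.10, above all 6 other libraries. The transcripts of these chains are alike in length, 6616 and 6494 nt for the longest annotated coding transcript, but not in base composition. COL4A1 has 55.4% GC and COL4A2 has 62.0%, and in the 3′ untranslated region the values are 35.4% and 51.5%. With trends in length and GC content removed from each library, the log2 fold change of the mitotic IP was 1.25 for COL4A1 and 0.43 for COL4A2 (adjusted p 0.0433). The ratio of LAMB1 to LAMC1 was 1.15 and 1.09 in interphase without IP and 1.54 and 1.29 in the interphase IP. It was 0.649 and 0.825 in mitosis without IP and 0.836 and 1.06 in the mitotic IP. LAMB1 thus had the higher FPKM of these laminin chains in all 4 interphase libraries and LAMC1 in 3 of the 4 mitotic ones. Levels in the cells can be read from the libraries without IP alone. There LAMB1 was higher in both interphase libraries and LAMC1 in both mitotic ones.

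**Figure D4:**
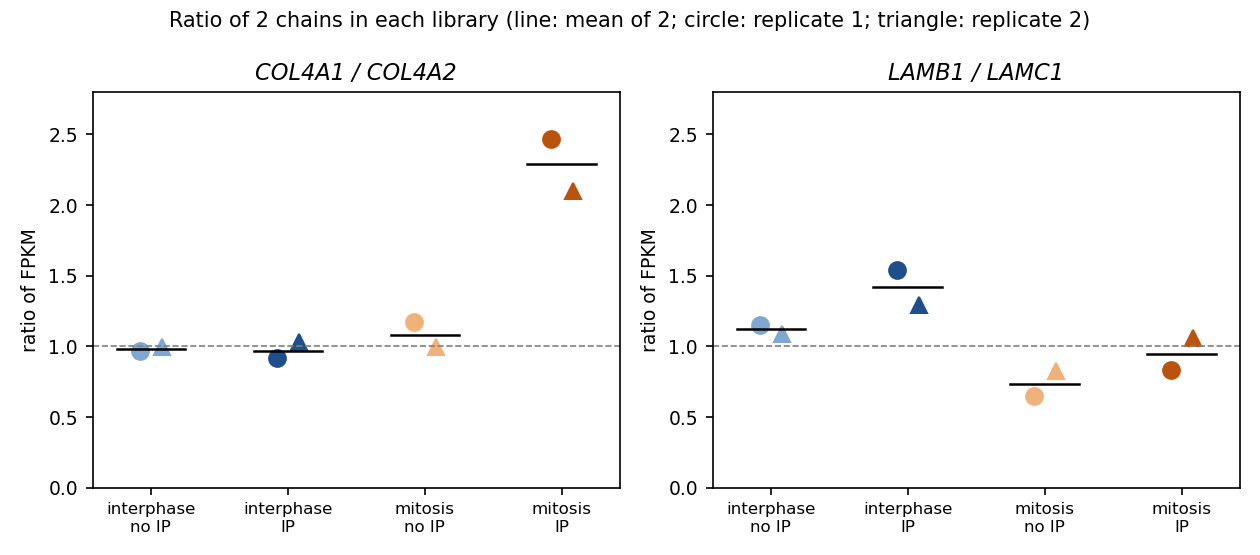
Ratio of FPKM of COL4A1 to COL4A2 (left) and of LAMB1 to LAMC1 (right) in each library. Circles are replicate 1, triangles replicate 2, lines the mean of 2, and the dashed line a ratio of 1. The COL4A1 to COL4A2 ratio is 2.47 and 2.10 in the mitotic IP and between 0.917 and 1.17 in the other 6 libraries.

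The mRNAs are long. Their longest annotated coding transcripts run from 4238 nt (COL6A1) to 11723 nt (COL12A1), against a median of 3357 nt for genes of the table, and 7 of the 8 are longer than 80.1% of genes or more. GC content runs from 46.3% (COL12A1) to 63.5% (COL6A1), against a median of 47.9%. In interphase, COL12A1 and COL5A2, with the lowest GC content of the 8, had the highest IP effects and COL6A1, with the highest, had the lowest. With trends in transcript length and GC content removed, the interphase effect was 1.43 for COL5A2, 1.19 for COL4A2, 0.92 for COL12A1, 0.78 for COL4A1, 0.68 for FN1 and 0.52 for LAMB1, all with an adjusted p below 0.05. In mitosis, LAMC1 stayed at -1.22 and LAMB1 at -0.76 after this removal, COL5A2 lost its call (0.28, adjusted p 0.154), and COL6A1 changed sign to 0.38 (adjusted p 0.0193). The lower IP effect in mitosis was kept by each of the 5 genes called for it, from -1.28 for LAMB1 to -0.89 for FN1.

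**Figure D5:**
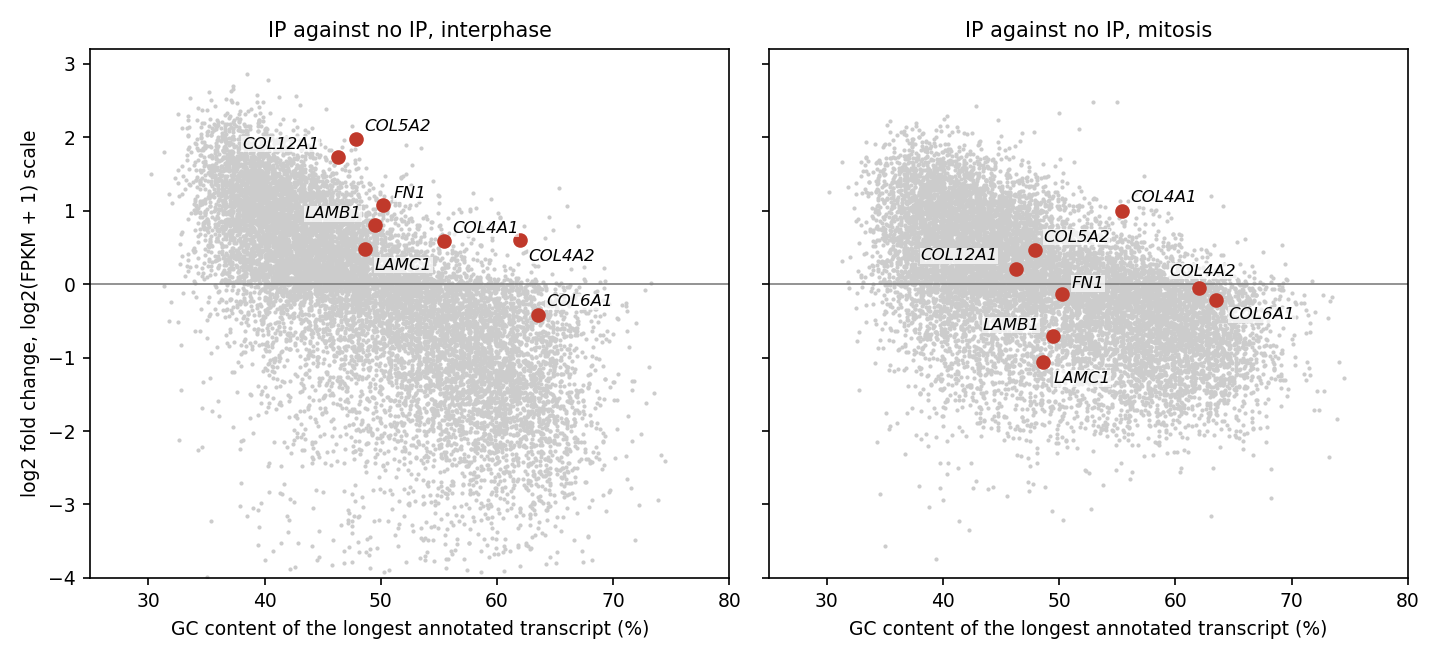
Log2 fold change of the IP against GC content of the longest annotated transcript, in interphase (left) and mitosis (right), on the log2(FPKM + 1) scale. Red points are the 8 genes and grey points 13135 genes with a matched transcript, of which 19 and 12 lie outside the axes. COL5A2 and COL12A1 (47.9% and 46.3% GC) are highest in interphase, and in mitosis LAMB1 and LAMC1 lie below 0 at a GC content close to that of COL5A2.

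Other genes of the matrix pathway were described from lists, by counts of calls with the same test. For the lists, trends in transcript length and GC content were not removed, and their part was not tested. For these counts the shares over all genes are 37.6% higher and 37.0% lower for interphase, 32.8% higher and 31.7% lower for mitosis, and 27.2% higher and 19.9% lower for the difference between phases. Of 18 other collagen chains, 6 rose and 3 fell with the interphase IP, 3 were higher and 0 lower in the mitotic IP, and the medians were 0.05 and 0.00. The IP effect was lower in mitosis than in interphase for 0 of these chains and higher for 1 (5.56%). Most were low, and only COL8A1, a short-chain collagen, averaged over 10 FPKM (30.2). COL8A1 rose from 28.7 ± 3.29 to 39.5 ± 0.946 FPKM (SD, n = 2) with the interphase IP and from 18.0 ± 2.25 to 34.6 ± 3.37 FPKM with the mitotic IP, log2 fold changes of 0.45 (adjusted p 0.00974) and 0.91 (adjusted p 0.000247). COL13A1, a membrane-spanning collagen, was lower in the interphase IP (-0.49, adjusted p 0.0216), and COL4A4, another type IV chain, was higher (0.96, adjusted p 0.000993) at levels of 0.555 and 2.03 FPKM. Of 7 other laminin chains, 1 was higher and 0 lower in the interphase IP, and 2 were higher and 0 lower in the mitotic IP. Between phases, the IP effect was lower in mitosis for 1 laminin chain (14.3%) and higher for 2 (28.6%). LAMB2, the beta chain that takes the place of LAMB1 in other laminins, was the one higher in interphase (0.90, adjusted p 0.0051). For LAMB2 the difference of the IP effect, mitosis minus interphase, was -1.34 (SE 0.31, adjusted p 0.00795). LAMA4, an alpha chain, had nearly equal interphase means, 9.33 ± 2.38 FPKM without and 9.46 ± 1.91 FPKM with the IP. LAMB3 was higher in the mitotic IP (0.42, adjusted p 0.0492).

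Of 8 other basement membrane genes with values among 14 listed, 5 (62.5%, against 19.9% of all genes) had a lower IP effect in mitosis than in interphase and 0 a higher one (27.2% of all genes), and the median difference was -0.54. HSPG2, the heparan sulfate proteoglycan perlecan, had a difference of -1.40 (SE 0.32, adjusted p 0.00648). It rose with the interphase IP (0.91, adjusted p 0.00483) and changed by -0.49 in the mitotic IP (adjusted p 0.0838). AGRN, the proteoglycan agrin, had a difference of -1.19 (SE 0.33, adjusted p 0.0168) and fell with the mitotic IP from 17.0 ± 2.36 to 8.38 ± 2.41 FPKM (adjusted p 0.00585). SPARC, a collagen-binding glycoprotein, fell with the interphase IP from 151 ± 0.92 to 103 ± 11.6 FPKM (adjusted p 0.021), and NTN4, a netrin that binds laminin, rose in both phases (0.77 and 0.66, adjusted p 0.0075 and 0.0194). Among 24 other secreted matrix proteins, 7 rose and 6 fell with the interphase IP and 4 were higher and 6 lower in the mitotic IP. The IP effect was lower in mitosis than in interphase for 8 of them (33.3%) and higher for 3 (12.5%). Their differences ran from -1.77, below the lowest of the 8 matrix genes (-1.54), to 1.82, with a median of 0.02. IGFBP7, an abundant binding protein of insulin-like growth factors, fell in interphase from 747 ± 53.1 to 153 ± 1.11 FPKM (log2 fold change -2.28, adjusted p 2.23e-06) and in mitosis from 340 ± 3.47 to 249 ± 21.4 FPKM (-0.46, adjusted p 0.0294). FSTL1 rose in both (0.50 and 0.90, adjusted p 0.00691 and 0.000304), and EFEMP1, a fibulin, rose in the mitotic IP (1.07, adjusted p 0.00392).

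Genes that fold and modify collagen in the endoplasmic reticulum or crosslink it outside the cell were mostly lower in the IP. Trends in transcript length and GC content were not removed here. Of 24 with values, 4 were higher and 18 lower in interphase (16.7% and 75.0%, against 37.6% and 37.0% of all genes), with a median of -0.87. In mitosis 6 were higher and 14 lower (25.0% and 58.3%, against 32.8% and 31.7% of all genes), with a median of -0.46. For 8 of them (33.3%, against 27.2% of all genes) the IP effect was higher in mitosis than in interphase. It was lower for 0 (19.9% of all genes). PPIB, a prolyl isomerase that assists collagen folding, fell in interphase from 303 ± 8.31 to 46.1 ± 1.2 FPKM and in mitosis from 244 ± 22.0 to 92.9 ± 0.290 FPKM (-2.69 and -1.38, adjusted p 3.61e-07 and 1.91e-05). PLOD2, a lysyl hydroxylase, rose instead (0.84 and 1.41, adjusted p 0.00916 and 0.00063), as did LOX, a crosslinking lysyl oxidase (1.74 and 1.67, adjusted p 3.68e-06 and 1.35e-05). Of 25 genes of the signal recognition particle and translocon, which bring such mRNAs to the endoplasmic reticulum, 9 were higher and 11 lower in interphase and 10 higher and 8 lower in mitosis. Their IP effect was higher in mitosis than in interphase for 10 (40.0%) and lower for 5 (20.0%). SEC61G, a small translocon subunit, fell most in both (-3.64 and -2.30, adjusted p 5.4e-07 and 1.42e-05), whereas SSR3, a translocon-associated subunit, rose (1.33 and 1.05, adjusted p 3.61e-05 and 0.000249), and SRP9 rose (0.82 and 0.72, adjusted p 0.0007 and 0.002). Of 17 genes of export from the endoplasmic reticulum, 10 were higher and 3 lower in interphase (58.8% and 17.6%, against 37.6% and 37.0% of all genes) and 10 higher and 4 lower in mitosis (58.8% and 23.5%, against 32.8% and 31.7%). The IP effect of 7 export genes (41.2%) was higher in mitosis than in interphase and that of 6 (35.3%) lower. SEC23A, a coat subunit of the export vesicles, rose in both (0.84 and 1.29, adjusted p 0.0002 and 3.03e-05). SEC13, another coat subunit, fell in both (-1.74 and -0.64, adjusted p 7.82e-07 and 0.000367), and SAR1A, the small GTPase of the coat, rose in mitosis (0.67, adjusted p 0.000602) and had 0.21 in interphase (adjusted p 0.107).

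Of 24 matrix receptors, 9 rose and 10 fell with the interphase IP, and 9 were higher and 9 lower in the mitotic IP. These are 37.5% and 41.7% in interphase and 37.5% each way in mitosis, near the shares over all genes (37.6% and 37.0%, 32.8% and 31.7%). The IP effect of 9 receptors (37.5%) was higher in mitosis than in interphase and that of 4 (16.7%) lower. Over all genes these shares are 27.2% and 19.9%. ITGAV, an integrin chain that binds fibronectin, rose in both (1.5 and 2.06, adjusted p 3.91e-06 and 6.4e-06), as did ITGB8, another integrin chain (2.13 and 1.14, adjusted p 2.15e-05 and 0.00157). ITGB1, a common beta chain of the collagen, laminin and fibronectin receptors, rose in mitosis from 551 ± 24.6 to 1230 ± 54.4 FPKM (1.16, adjusted p 0.000745), and CD44 rose in interphase from 136 ± 15.7 to 263 ± 41.6 FPKM (0.94, adjusted p 0.000606). Of 19 genes of matrix turnover, 5 were higher and 12 lower in interphase, and 6 were higher and 8 lower in mitosis. Between phases, 7 turnover genes (36.8%) had a higher IP effect in mitosis and 1 (5.26%) a lower one. MMP2, a protease that cleaves type IV collagen, fell by a like amount in both (-1.04 and -1.0, adjusted p 7.51e-05 and 0.000156). TIMP1, an inhibitor of such proteases, fell (-2.85 and -1.58, adjusted p 1.45e-06 and 7.35e-05), as did PLAUR, the urokinase receptor (-1.83 and -1.63, adjusted p 1.31e-06 and 8.91e-06), while the membrane protease ADAM9 rose (0.71 and 0.78, adjusted p 0.00243 and 0.00179).

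Likeness was measured for 5821 genes with a mean of at least 10 FPKM, as the Euclidean distance over the 8 libraries between a gene's log2(FPKM + 1) profile, centred on its mean, and the mean centred profile of the 8 matrix genes. The 5 nearest were KDM5B (distance 0.25), TIMM8A (0.39), HNRNPU (0.40), NAV1 (0.41) and DOCK5 (0.43). HNRNPU is the gene of the precipitated protein. The matrix genes lay farther from their own mean, from 0.79 for COL4A2 to 2.01 for COL4A1, so the mean profile is not that of any 1 of them.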

How the data were processed

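The authors deposited a gene table with 1 column of FPKM values per library and ratio columns made from them, per the file headers, on build hg38. TopHat and StringTie are named in the submitters' processing notes, without versions or roles. Further filters, multiply mapped reads and the use of strand are not given in the sources used here. The deposited ratios were recomputed from the FPKM columns and matched in all 80826 values within a relative tolerance of 0.001. The authors' lncRNA table was not used.

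All 8 libraries entered 1 limma fit (version 3.58.1 under R 4.3.3) of log2(FPKM + 1), unfiltered, with a coefficient for each group, a trended prior variance and 4 residual degrees of freedom. Benjamini-Hochberg adjustment ran over the 13471 genes of a comparison, and an adjusted p below 0.05 was a call. The script was tested on simulated data. No fragment counts are given, so no counting interval is printed. GENCODE release 29 was matched for 97.5% of genes by symbol, older symbol and chromosome. It gave coordinates and the longest transcript (coding where the gene is). Promoter bases are from a set of RefSeq promoters with entries for 8 of the 10 named genes, 6 of them among the genes analysed. They are printed only where neither a GENCODE exon nor the gene's own interval in the table overlaps the window. Length and GC trends were splines with 5 degrees of freedom per library.

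All 10 members are named. From each other list, the 2 genes with the highest mean FPKM and the called gene with the largest IP effect in each phase are named. In addition, the 5 genes nearest to the members' mean profile are named. Members and lists were chosen with earlier results of these data known. Alternatives were another pseudocount, a filter, 2 scalings, trend removal, a replicate block, no variance trend and leaving out each library. Scaling to equal sums of FPKM was not among them.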

Additional observations from a re-analysis of the deposited data

Results flagged for a closer look

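The effect of the IP differed between mitosis and interphase, by limma's test of the interaction, for 5 of the 8 genes, at differences of -1.54 for LAMC1, -1.52 for COL12A1, -1.51 for LAMB1, -1.5 for COL5A2 and -1.22 for FN1 on the log2 scale (n = 2 libraries in each group, adjusted p from 0.000147 to 0.00709). The differences were negative in both replicates of each gene, which is no separate support, since the genes were called on these libraries. Of all genes, 19.9% passed with a lower effect in mitosis. Among 24 other secreted matrix proteins 33.3% did, with differences down to -1.77, and among 18 other collagen chains 0 did. For COL5A2 the level in the IP did not pass the test between phases (0.18, limma adjusted p 0.383), while the level without IP rose (1.69).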

How the results depend on the processing

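Of 635 recomputed values (40 gene comparisons under up to 16 alternatives), 579 kept their direction and their side of the threshold. With the sign kept, 19 lost the call and 11 gained one. The other 26 changed sign and were counted only as that, also where a call was lost or gained, as for LAMC1 in the interphase IP with trends removed. The cause of these changes was not tested. The 8 calls of the interphase IP became 5 without interphase no-IP replicate 1. Leaving out 1 library gave 5 to 8 calls for the IP in interphase, 3 to 5 in mitosis, 5 to 6 for the difference, 5 to 6 for mitosis without IP and 4 to 5 in the IP. Over all genes the ranges were 9170 to 10157 calls (10051 with all libraries), 7458 to 8787 (8694), 5075 to 5951 (6339), 5174 to 7092 (6963) and 7230 to 8092 (8269). With length and GC trends removed, with or without the replicate block, the sign changed for COL6A1 (0.48 in the interphase IP, 0.38 in the mitotic IP, -0.10 for the difference), LAMC1 (-0.04 in the interphase IP), COL4A2 (0.43 in the mitotic IP) and COL12A1 (-0.11 in the mitotic IP, -0.25 for mitosis without IP). Median centring, which moved the median of all genes from 0.02 to 0.14 in the interphase IP and from 0.08 to -0.03 for mitosis in the IP, turned COL4A2 in the mitotic IP to 0.04 and COL12A1 without IP to -0.05. Quantile normalization turned FN1 in the mitotic IP to 0.27 and COL12A1 without IP to -0.06. Leaving out 1 library turned values near 0: COL4A2 in the mitotic IP to 0.06 (mitosis IP replicate 2) and 0.01 (mitosis no-IP replicate 1; lowest value over the libraries left out -0.17), COL12A1 without IP to -0.09 and -0.08 (replicate 1 of interphase and of mitosis; highest 0.15), FN1 without IP to 0.03 (interphase no-IP replicate 2; lowest -0.13), COL5A2 in the IP to -0.02 (interphase IP replicate 2) and COL6A1 in the IP to 0.03 and 0.02 (replicate 1 of interphase and of mitosis; lowest -0.24). A pseudocount of 0.1, no trend in the prior variance and a mean of at least 1 FPKM, which leaves out COL6A1, changed no call of these genes.

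Replicates share numbers across groups, but the labels do not say what a number marks. Deviations of libraries with the same number correlated at 0.088 to 0.528 across genes. With the replicate block, 40 of 40 gene comparisons kept direction and call, and all genes gave 10374 calls for the interphase IP and 9099 for the mitotic IP.

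Fragment numbers are unknown and each group has 2 libraries, which limits the precision of every value. COL6A1, below 1 FPKM in all 8 libraries, has the lowest level of the 8 genes.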
